A study of Mus musculus with 20 samples.

Results

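The 67NR line is a mouse mammary carcinoma line of the 4T1 model whose tumours grow in the mammary fat pad without forming metastases, whereas the tumours of its sister line 66cl4 metastasize. The cells of 67NR tumours were separated on the leukocyte antigen CD45, and the libraries of the CD45+ and CD45- gates were compared. These were 10 of the 20 libraries of the series, chosen by their titles. Each of 5 animals, numbered 1, 4, 5, 6 and 7, gave 1 library of each gate, so that the gates were compared within animals. All were adult female BALB/cJ mice of unmodified genotype, immunocompetent and untreated, into whose fat pad 1000000 cultured 67NR cells had been injected. Ages and times are not given per animal in the labels. Animals of the 66cl4 group, also 5, were of the same strain and handled in the same way, and their 10 libraries enter only the last comparison. A gate is not a pure cell type. The CD45+ gate holds all leukocytes of the tumour, the CD45- gate holds tumour cells together with fibroblasts, vessel cells and any other cell without CD45, and each tumour line stands for 1 cell line. Of the 52783 genes in the table, 15063 passed a filter on low counts and were tested.

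CD45 is a receptor protein tyrosine phosphatase, encoded by Ptprc, that sits on the surface of nearly all nucleated blood cells and keeps Src-family kinases ready for signalling from antigen receptors. Solid tumours are infiltrated by macrophages, monocytes, neutrophils, dendritic cells, lymphocytes and mast cells, all of which carry CD45. Carcinoma cells, fibroblasts, pericytes and endothelial cells lack it and make most of the collagenous matrix, the basement membrane and the vessel walls. Since each library is a bulk sample of a gate, a higher level can come from more cells of a type or from more RNA per cell, and these cannot be told apart.

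Libraries held 12959956 to 18372216 estimated counts in the CD45+ gate (median 16311204) and 16917017 to 22180289 in the CD45- gate (median 21247555). TMM scaling factors, which correct library sizes for composition, lay between 0.873 and 1.095. No replicates were alike within sampling noise. Levels are CPM, that is, counts scaled to a library of 1000000 on these sizes. When 5 values are given for a gate, they belong to animals 1, 4, 5, 6 and 7 in that order, and a value with ± is a mean and SD of 5 libraries. Fold changes are log2 ratios of CD45+ over CD45- cells, so that negative values are higher in CD45- cells. After a fold change or a difference of fold changes, ± gives an SE instead. This SE was derived as the absolute value divided by the square root of the F statistic of its test. A gene was called when its adjusted p-value in the quasi-likelihood test of edgeR was under 0.05 and its absolute log2 fold change was over 1.

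Of the 15063 genes, 3044 (20.2%) were called higher in CD45+ cells and 2974 (19.7%) higher in CD45- cells, 6018 (40%) in all. For 8364 genes (55.5%) the 5 libraries of one gate lay entirely above the 5 of the other. These shares are the background against which the counts of gene groups below are read. Numbers were alike in both directions but sizes were not. Among called genes the median log2 fold change was 2.92 on the CD45+ side and −2.03 on the CD45- side. A difference of more than 4-fold was seen for 2000 genes higher in CD45+ and for 1524 higher in CD45- cells, and one of more than 32-fold for 711 and 6 genes. By animal, mesenchymal transcription factors stood in the CD45+ library at a median of 12 to 42.4% of their CD45- level. Genes shared by all leukocytes stood in the CD45- library at 1.69 to 3.69% of their CD45+ level. What part these levels have in the unequal sizes was not tested. Over all genes tested the median was −0.05, with quartiles at −0.76 and 0.72.

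**Figure D1:**
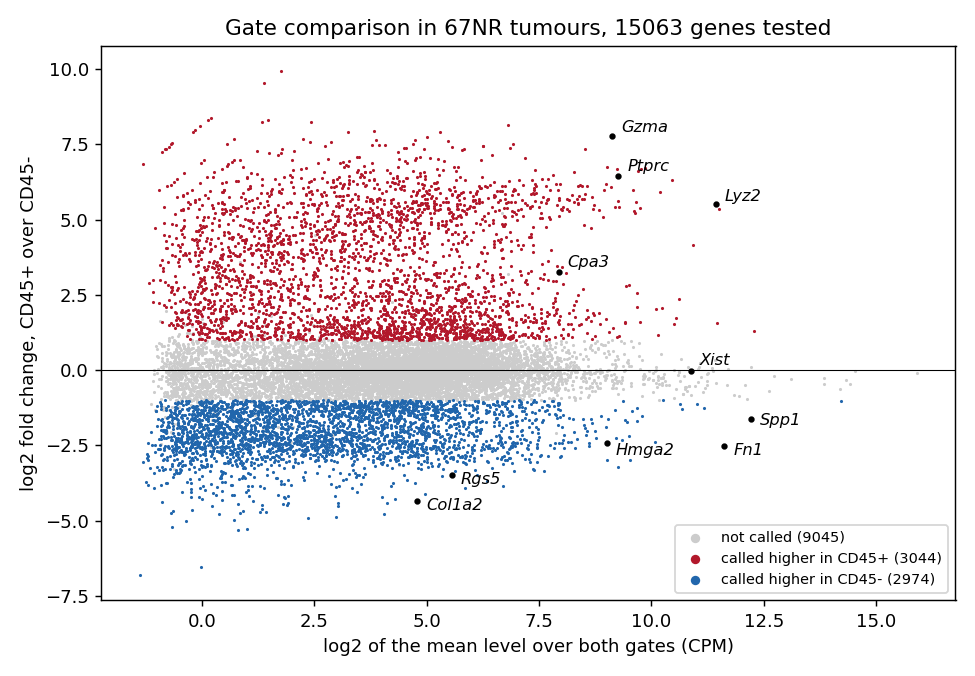
Each point is 1 of 15063 genes, plotted by the log2 of its mean level over both gates in CPM (x axis) and its log2 fold change of CD45+ over CD45- cells (y axis), in red when called higher in CD45+, in blue when called higher in CD45- and in grey when not called. The red cloud reaches beyond 7.5, whereas nearly all blue points lie above −5, and 10 genes described in the text are labelled.

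Ptprc itself, the gene of the antigen that was sorted on, stood at 956, 910.4, 1212, 1559 and 1434 CPM in the CD45+ libraries and 11.6, 26, 8.15, 18.3 and 9.99 CPM in the CD45- libraries, and the gates did not overlap (log2 fold change 6.46 ± 0.37, adjusted p = 9.17e-06). The CD45- level was 1.14% of the CD45+ level. Because the sort used this protein, Ptprc checks the gate and is no result. The other 23 of the 24 genes listed as shared by all leukocytes were called in the same direction, with log2 fold changes between 5.02 and 6.7 over the 24 and a median of 5.59. They encode, among others, the actin organisers Coro1a and Lcp1, the adhesion subunit Itgb2 and the tetraspanins Cd53 and Cd37. Their summed level was 8367 to 13890 CPM in CD45+ libraries and 144 to 292 CPM in CD45- libraries. Within animals the median ratio of the list was 5.53, 4.76, 5.75, 5.32 and 5.89 on the log2 scale, so that these markers stood in the CD45- library at 1.69 to 3.69% of the CD45+ level, lowest in animal 7 and highest in animal 4.

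Myeloid markers were higher in CD45+ cells with few exceptions. All 11 monocyte, 19 of 19 tested macrophage and 16 of 17 dendritic cell markers were called higher in CD45+ cells, where 20.2% of all genes were, with median log2 fold changes of 5.53, 5.37 and 5.22. Lyz2, the lysozyme of monocytes and macrophages, stood at 5147, 4862, 6216, 5720 and 5139 CPM in the CD45+ libraries and 105, 182, 101, 138 and 83.8 CPM in the CD45- libraries (log2 fold change 5.53 ± 0.23, adjusted p = 2.3e-06). Ccr2, the receptor by which monocytes leave the marrow and enter tissue, was at 954, 793, 1205, 1188 and 982 CPM in the CD45+ libraries and 6.56, 12.2, 6.27, 17 and 8.27 CPM in the CD45- libraries (log2 fold change 6.75 ± 0.31, adjusted p = 3.7e-06). The values of both genes were separated by gate in all 5 animals. Plac8 followed with 709 ± 118 against 14.2 ± 4.62 CPM and a log2 fold change of 5.7. Of the macrophage genes, C1qb, a chain of the recognition molecule of the classical complement pathway, was at 878, 1162, 1079, 963 and 1665 CPM in the CD45+ libraries and 17.3, 53.2, 27.3, 24.2 and 19.3 CPM in the CD45- libraries (log2 fold change 5.43 ± 0.31, adjusted p = 8.43e-06). Its CD45- level was highest in animal 4, the library in which the pan-leukocyte list was also highest among CD45- libraries. Apoe, an apolipoprotein of macrophages that tumour cells may also make, had 1529 ± 287 against 42.3 ± 21.7 CPM, and the mannose receptor Mrc1 had 1211 ± 206 against 32.8 ± 20.9 CPM, with log2 fold changes of 5.28 and 5.43.

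Genes of antigen presentation lay in the same gate. All 10 genes of the MHC class II pathway were called higher in CD45+ cells (median 5.97). H2-Aa, a class II chain, had 1550, 1827, 2076, 1580 and 1539 CPM in the CD45+ libraries and 12.9, 56.1, 14.2, 14.2 and 9.53 CPM in the CD45- libraries (log2 fold change 6.67 ± 0.41, adjusted p = 1.29e-05), and animal 4 again held the highest CD45- value. The invariant chain Cd74 had 2780 ± 657 against 44.5 ± 43.5 CPM and H2-Ab1 had 614 ± 104 against 8.49 ± 8.56 CPM. Among dendritic cell genes, the lysosomal amidase Naaa (297 ± 56.8 against 13.8 ± 3.46 CPM) and Wdfy4, needed for cross-presentation (83 ± 14.6 against 2.81 ± 1.46 CPM), held the highest levels. Siglech, a surface lectin of plasmacytoid dendritic cells, was at 85.9, 70.5, 53, 79.9 and 45.8 CPM in the CD45+ libraries and 0.845, 0.99, 0.0988, 0.517 and 0.172 CPM in the CD45- libraries (log2 fold change 7.03 ± 0.32, adjusted p = 3.86e-06). The gates of Siglech did not overlap.

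Neutrophil genes varied more between animals. Of 16 listed, 11 were tested and 8 were called higher in CD45+ cells (median 5.43). The calprotectin subunit S100a8 was at 761, 415, 207, 199.7 and 70.8 CPM in the CD45+ libraries and 8.2, 5.57, 1.38, 6.25 and 3.56 CPM in the CD45- libraries (log2 fold change 5.84 ± 0.47, adjusted p = 4.56e-05). Cxcr2, the receptor that draws neutrophils to ELR+ chemokines, was at 160.4, 84, 66.3, 56.2 and 27.2 CPM in the CD45+ libraries and 22.8, 27.5, 38.3, 25.5 and 24.4 CPM in the CD45- libraries (log2 fold change 1.29 ± 0.36, adjusted p = 0.0144), and its gates overlapped, since the CD45+ value of animal 7 lay within the range of the CD45- libraries. Without animal 1 the fold change of Cxcr2 was 0.96 and it was no longer called. Between animals the summed level of the 16 listed genes in CD45+ cells spanned 439 to 3224 CPM, highest in animal 1 and lowest in animal 7. Il1b, which encodes the cytokine interleukin-1 beta and is made by neutrophils as well as monocytes, was at 2327, 1466, 2133, 1485 and 785 CPM in the CD45+ libraries and 23.1, 22.9, 11.5, 24.2 and 5.97 CPM in the CD45- libraries (log2 fold change 6.62 ± 0.31, adjusted p = 4e-06). Its levels did not overlap between the gates.

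The largest fold changes among well expressed genes were those of natural killer (NK) cells and cytotoxic lymphocytes. All 12 listed genes were called higher in CD45+ cells, at a median log2 fold change of 7.19, above the 5.59 of the pan-leukocyte list. When the 12 largest CD45+ fold changes were drawn from all called genes with at least 50 CPM and separate gates, they were Klra7, Gzma, Ctsw, Klrg1, Trbc1, Ncr1, Klrc2, Klra3, Trdc, Klrd1, Nkg7 and Klri2. These encode killer cell receptors of the Klr families, the proteases granzyme A and cathepsin W, the granule protein Nkg7, the activating receptor NKp46 (Ncr1) and the constant regions of the T cell receptor beta and delta chains. Killer cell receptors and granzymes are families of similar genes among which the estimation can divide reads, so that single members are uncertain.

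Gzma, which encodes the granule protease granzyme A, was at 191, 378, 1217, 1655 and 2123 CPM in the CD45+ libraries and 1.39, 5.98, 2.72, 9.04 and 2.81 CPM in the CD45- libraries (log2 fold change 7.77 ± 0.62, adjusted p = 4.32e-05). Ncr1, which is restricted to NK cells and innate lymphoid cells, was at 39.6, 116, 239.5, 387 and 431 CPM in the CD45+ libraries and 0.497, 1.9, 0.889, 1.85 and 0.402 CPM in the CD45- libraries (log2 fold change 7.52 ± 0.58, adjusted p = 3.8e-05). Klra7, an inhibitory receptor for MHC class I, was at 13.1, 38, 88.2, 132 and 122 CPM in the CD45+ libraries and 0.199, 0.577, 0.148, 0.301 and 0.115 CPM in the CD45- libraries (log2 fold change 7.92 ± 0.53, adjusted p = 1.76e-05). Separate gates were a condition by which these 3 genes were drawn. In each of them the CD45+ value of animal 1 was the lowest of its gate and those of animals 6 and 7 were the highest. Without animal 4, whose CD45- library held the most of the pan-leukocyte list, the log2 fold change of Klra7 was 8.7, that of Klrc2 8.71, that of Trbc1 8.43 and that of Ctsw 8.38, against 7.92, 7.5, 7.63 and 7.75 with it, and Klra3, Klrd1 and Nkg7 moved up in the same way to 8.12, 8.01 and 8.05. All of them were called with and without it. Without animal 7 Ctsw was at 7.16. The summed level of the 12 genes in CD45+ cells ranged from 536 CPM in animal 1 to 5818 CPM in animal 7.

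All 24 T cell markers were called higher in CD45+ cells (median 6.17). Cd3g, a chain of the T cell receptor complex, was at 20.8, 63.8, 79.2, 83.7 and 58.5 CPM in the CD45+ libraries and 0.0994, 1.28, 0.346, 0.215 and 0 CPM in the CD45- libraries (log2 fold change 7.35 ± 0.54, adjusted p = 2.77e-05). Without animal 4, which held the highest CD45- value, its log2 fold change was 8.43. The kinase Lck, which starts T cell receptor signalling, had 81.7 ± 48.3 against 0.752 ± 0.603 CPM, and the costimulatory receptor Icos had 45.8 ± 12.8 against 0.537 ± 0.346 CPM. B cell genes were lower in level and in fold change. All 10 tested were called (median 4.08), of which 7 had no overlap between the gates, beside 55.5% of all genes. Ms4a1, which encodes CD20, was at 4.69, 7.81, 6.43, 58.4 and 3.83 CPM in the CD45+ libraries and 0.994, 0.289, 0.346, 0.732 and 1.38 CPM in the CD45- libraries (log2 fold change 3.76 ± 0.74, adjusted p = 0.0032), and the CD45+ value of animal 6 stood far above the other 4. Without animal 6 the log2 fold change of Ms4a1 was 3.08, and without animal 7 it was 4.47, and it was called in both cases. Cd79b, the signalling chain of the B cell receptor, had 25.4 ± 11.4 against 1.08 ± 0.888 CPM. Eosinophil genes, of which 2 of 5 were tested, were both called, the eotaxin receptor Ccr3 with 18.4 ± 13 against 0.293 ± 0.225 CPM and Siglecf, which was near the lower limit of detection, with 1.4 ± 0.712 against 0.0314 ± 0.0454 CPM and a log2 fold change of 5.33, or 5.92 without animal 1.

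Mast cell genes had the smallest median fold change of the leukocyte lists. Mast cells are tissue leukocytes that store carboxypeptidase and chymases in granules and depend on the receptor Kit. All 9 tested genes were called higher in CD45+ cells, but their median log2 fold change was 2.79. Of the 9, 6 had no overlap between the gates, beside 55.5% of all genes. Cpa3, mast cell carboxypeptidase, was at 375, 472, 470.3, 392 and 293 CPM in the CD45+ libraries and 5.46, 9.12, 69, 99.9 and 266 CPM in the CD45- libraries (log2 fold change 3.27 ± 1.01, adjusted p = 0.0231). The chymase Mcpt4 was at 288, 411, 427, 359 and 324 CPM in the CD45+ libraries and 7.6, 8.08, 84.5, 103 and 326 CPM in the CD45- libraries (log2 fold change 2.95 ± 0.95, adjusted p = 0.0272). In both genes the CD45+ values lay close together, whereas the CD45- values were low in animals 1 and 4 and higher in animals 5, 6 and 7. In animal 7 the levels of both gates were close, 293 and 266 CPM for Cpa3 and 324 and 326 CPM for Mcpt4. The median ratio of the list within animals was 4.97, 5.0, 2.27, 1.8 and 0.14 on the log2 scale. In the CD45- libraries the summed level of the list ran from 39.4 to 1069 CPM, while that of the pan-leukocyte list ran from 144 to 292 CPM and was not highest in animal 7. The calls rested on few animals. Of the 9, 6 were called without the animal block, 2 without a filter on low counts, 5 when animal 1 was left out and 3 when animal 4 or animal 5 was. Cpa3 was not called without animal 4, at 2.56, or without animal 5, at 3.5, and was called at 2.56 without animal 1 and at 4.08 without animal 7. Mcpt4 was not called without animal 1, 4 or 5, at 2.33, 2.22 and 3.2, and was called at 3.71 without animal 7.

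**Figure D2:**
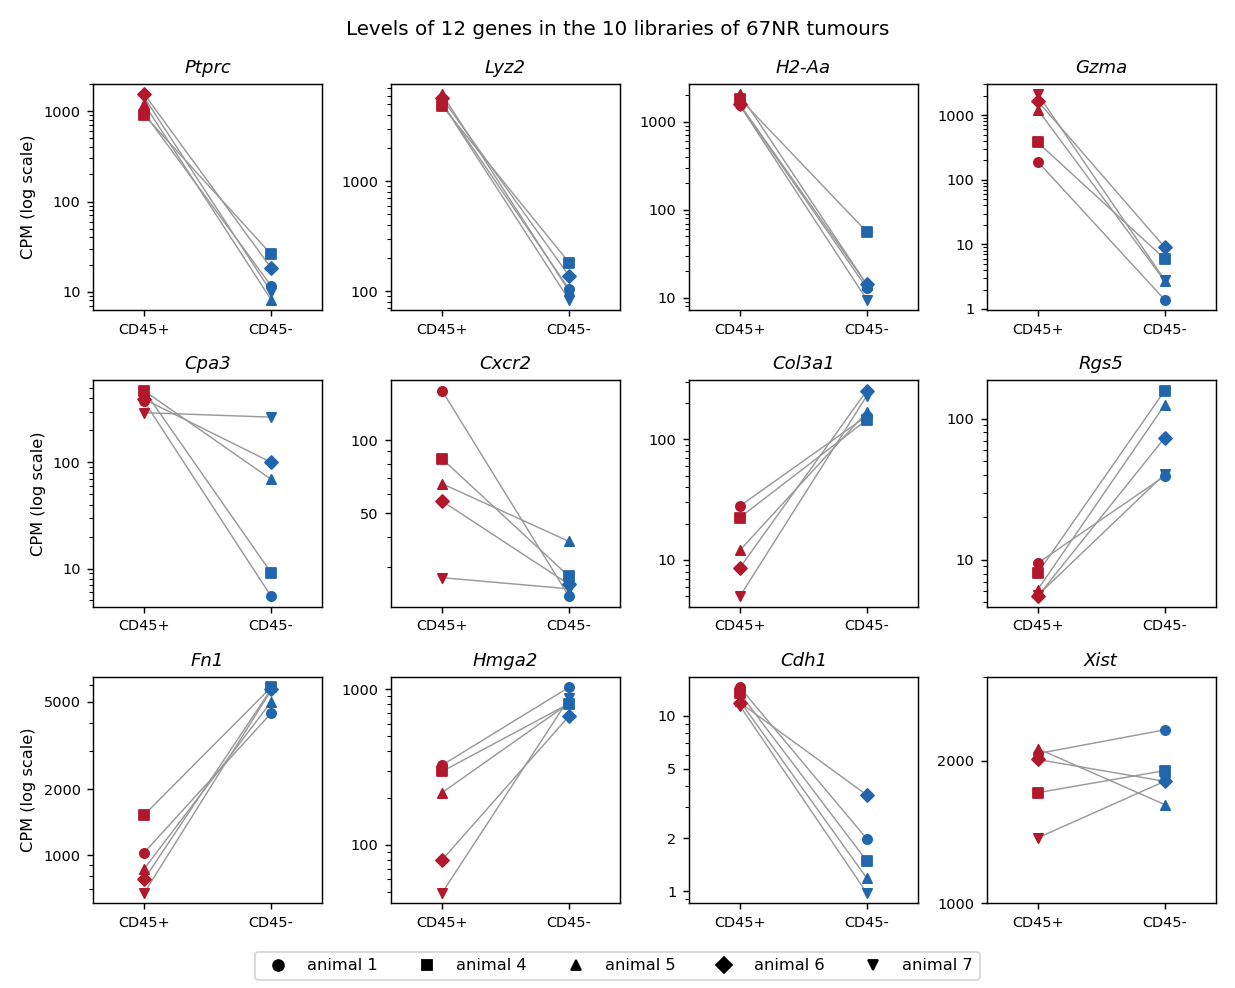
Levels in CPM on a log scale (y axis, scaled for each gene) of 12 genes in the CD45+ and CD45- library (x axis) of each of 5 animals, with 1 symbol per animal and a line joining the libraries of an animal. Ptprc, Lyz2, H2-Aa and Gzma are higher in CD45+ cells in every animal, Cpa3 reaches 266 CPM in the CD45- library of animal 7, Col3a1, Rgs5, Fn1 and Hmga2 are lower in CD45+ cells, and Xist is at 1374 to 2321 CPM in both gates.

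The CD45- side was led by matrix and vessel wall genes. Under the same rule its 12 largest fold changes were Col1a2, Postn, Igfbp3, Col3a1, Col1a1, Col6a3, Dcn, Rgs5, Hspg2, Nid1, Mmp2 and Sned1. They include 4 fibrillar or beaded-filament collagen chains, the matricellular protein periostin, the proteoglycans decorin and perlecan (Hspg2), the basement membrane linker nidogen, and gelatinase A (Mmp2). Col1a2, a chain of type I collagen, was at 6.47, 3.15, 1.54, 2.23 and 0.943 CPM in the CD45+ libraries and 33.4, 38.9, 54, 71.3 and 64.6 CPM in the CD45- libraries (log2 fold change −4.34 ± 0.53, adjusted p = 0.00035). Postn was at 6.2, 4.41, 1.37, 2.3 and 3.33 CPM in the CD45+ libraries and 29.7, 54.8, 49.2, 82.2 and 78.1 CPM in the CD45- libraries (log2 fold change −4.11 ± 0.46, adjusted p = 0.000214). Col3a1, the chain of type III collagen, was at 28, 22.5, 12, 8.6 and 4.99 CPM in the CD45+ libraries and 156, 145, 169, 254 and 229.9 CPM in the CD45- libraries (log2 fold change −3.84 ± 0.51, adjusted p = 0.0005). For all 3 genes the CD45- libraries lay above every CD45+ library, which the rule required of them. Igfbp3, which binds insulin-like growth factors in the extracellular space, was at 21.2, 18.3, 4.5, 2.36 and 1.61 CPM in the CD45+ libraries and 126, 192, 89, 80.5 and 42.8 CPM in the CD45- libraries (log2 fold change −3.92 ± 0.38, adjusted p = 0.000118).

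Of 15 tested fibroblast markers 12 were called higher in CD45- cells (median −2.92), where 19.7% of all genes were. Podoplanin (Pdpn) had 109 ± 60.9 against 422 ± 40.3 CPM, dermatopontin (Dpt) 39.7 ± 25.6 against 238 ± 24.6 CPM and Cd34, which vessel cells and stem cells also carry, 47.8 ± 26.6 against 226 ± 19.5 CPM. The exception was Thy1, a surface protein of fibroblasts that T cells of the mouse carry as well, with 18.3, 50.1, 72.2, 113 and 191 CPM in the CD45+ libraries and 6.01, 13.9, 13.9, 14.9 and 11.7 CPM in the CD45- libraries (log2 fold change 2.56 ± 0.35, adjusted p = 0.000595). All 9 tested markers of pericytes and smooth muscle were called higher in CD45- cells (median −3.47). Rgs5, a regulator of G protein signalling in pericytes, was at 9.48, 8.06, 6.15, 5.52 and 5.6 CPM in the CD45+ libraries and 39.2, 158, 125, 73.2 and 40.5 CPM in the CD45- libraries (log2 fold change −3.47 ± 0.37, adjusted p = 0.000183). The myosin light chain kinase Mylk had 7.88 ± 4.53 against 42.6 ± 6.13 CPM, and Abcc9, a subunit of pericyte potassium channels, had 1.94 ± 1.37 against 37.4 ± 21.4 CPM.

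Endothelial markers were split. Of 18 tested, 13 were called higher in CD45- and 2 in CD45+ cells. Cdh5, the cadherin of endothelial junctions, was at 10.5, 7.68, 5.18, 5.12 and 3.88 CPM in the CD45+ libraries and 55.9, 89.9, 38.9, 40.3 and 23.4 CPM in the CD45- libraries (log2 fold change −2.89 ± 0.18, adjusted p = 8.48e-06). The receptor Flt1 had 3.96 ± 1.41 against 18.4 ± 11.9 CPM. Lyve1, a hyaluronan receptor of lymphatic vessels that some tissue macrophages also carry, went the other way with 33.5, 11.7, 27.7, 24.2 and 22.2 CPM in the CD45+ libraries and 1.74, 1.07, 1.68, 1.33 and 0.459 CPM in the CD45- libraries (log2 fold change 4.22 ± 0.27, adjusted p = 9.99e-06). Vwf, which encodes von Willebrand factor of endothelium and platelets, was at low levels, 2.6 ± 0.793 against 0.49 ± 0.153 CPM (log2 fold change 2.35 ± 0.36, adjusted p = 0.000768). The kinase receptor Kdr, a defining endothelial gene, was not called, with 11.9 ± 4.51 against 11.3 ± 7.95 CPM (log2 fold change 0.27 ± 0.45, adjusted p = 0.629). Levels of Kdr overlapped between the gates, and without animals 1 and 4, a setting chosen after seeing the data, its log2 fold change was 1.09 and it was called.

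Epithelial genes were scarce in both gates. Of 16 listed, 6 were tested, of which 4 were called higher in CD45- cells and 1, Cdh1, in CD45+ cells. Cdh1, which encodes E-cadherin, was at 14.5, 13.4, 12.1, 11.9 and 11.4 CPM in the CD45+ libraries and 1.99, 1.49, 1.19, 3.53 and 0.976 CPM in the CD45- libraries (log2 fold change 2.9 ± 0.28, adjusted p = 8.73e-05), so that the defining epithelial cadherin was lower in the gate that holds the carcinoma cells. The keratins Krt8 and Krt19 had 0.586 ± 0.371 against 3.44 ± 1.66 CPM and 0.138 ± 0.111 against 3.34 ± 2.74 CPM, both called higher in CD45- cells. Mesenchymal transcription factors were frequent. Of 19 tested, 17 were called higher in CD45- cells (median −2.49). Hmga2, a chromatin protein of embryonic and tumour cells, was at 324, 296, 216, 79.8 and 49 CPM in the CD45+ libraries and 1028, 807, 812, 671 and 871 CPM in the CD45- libraries (log2 fold change −2.42 ± 0.42, adjusted p = 0.00181). Tead1, the DNA-binding partner of YAP, was at 89.4, 128, 70.8, 33.9 and 22.6 CPM in the CD45+ libraries and 503, 426, 378, 449 and 396 CPM in the CD45- libraries (log2 fold change −2.89 ± 0.38, adjusted p = 0.000454). Zeb2, a repressor of E-cadherin that macrophages and NK cells also use, was called in the other direction with 488, 402, 422, 383 and 403 CPM in the CD45+ libraries and 163, 164, 125, 147 and 129 CPM in the CD45- libraries (log2 fold change 1.53 ± 0.1, adjusted p = 1.36e-05). For Hmga2 and Tead1 the gates did not overlap, but within the CD45+ gate Hmga2 varied from 49 CPM in animal 7 to 324 CPM in animal 1.

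The list as a whole varied between animals. Over its 17 members with a mean of at least 5 CPM in one gate, the median log2 ratio within animals was −1.66, −1.24, −2.2, −3.06 and −3.05, which puts the CD45+ level of these genes at 42.4% of the CD45- level in animal 4 and at 12% in animal 6. Collagen chains gave −2.31, −2.37, −3.19, −4.02 and −4.09. Animals 1 and 4 had the smallest gate difference in both lists, and their part in the results was measured by leaving them out, which was chosen after seeing the data. Without them 6597 genes were called, against 6018 with them. NK genes gave 4.92, 5.04, 6.73, 6.74 and 7.7 and neutrophil genes 6.18, 5.23, 5.4, 4.49 and 4.03, so that the animals differed in the size of the gate difference of single cell types while the pan-leukocyte list stayed between 4.76 and 5.89. Genes of the type I interferon response gave 2.5, 2.16, 2.37, 2.59 and 2.32, the narrowest range of the lists in this paragraph.

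**Figure D3:**
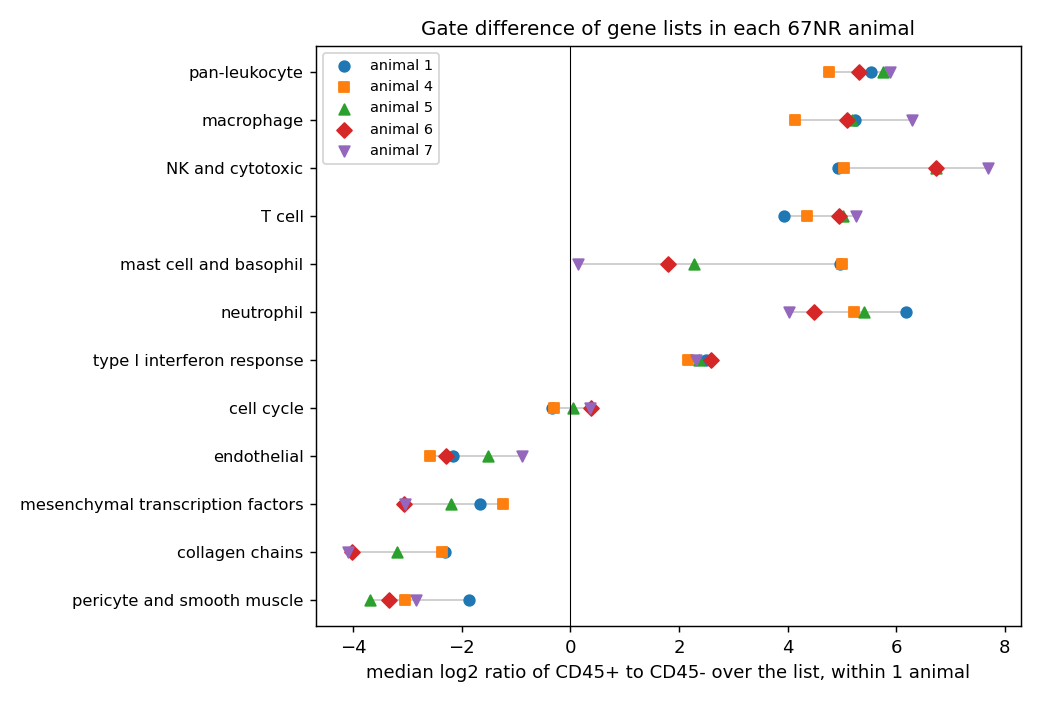
For 12 gene lists (y axis), the median over the list of the log2 ratio of the CD45+ to the CD45- library within each of 5 animals (x axis), with 1 symbol per animal and a grey line over their range. The mast cell list spreads from 0.14 in animal 7 to 5.00 in animal 4, whereas the type I interferon list lies between 2.16 and 2.59.

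Regulators and receptors of haematopoietic cells were almost all on the CD45+ side. Of 23 tested haematopoietic transcription factors 20 were called (median 4.92), among them the macrophage factor Maf (509 ± 36 against 12.8 ± 6.15 CPM) and the interferon regulatory factor Irf8 (178 ± 61.7 against 3.37 ± 1.9 CPM), and 0 were called higher in CD45- cells. Fc receptors and the adaptors that carry an immunoreceptor activation motif were called in 16 of 17 cases (median 5.59), among them the inhibitory receptor Fcgr2b (1553 ± 120.4 against 45.4 ± 22.6 CPM) and the common gamma chain Fcer1g (1204 ± 218 against 25.1 ± 7.4 CPM). Toll-like receptors and inflammasome genes were called in 20 of 21 cases (median 3.9), with Tlr13, a sensor of bacterial ribosomal RNA, at 339 ± 27.6 against 6.21 ± 3.53 CPM and Tlr7 at 211 ± 18.8 against 4.37 ± 2.27 CPM.

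The effector enzymes of phagocytes followed. Of 7 tested NADPH oxidase genes 5 were called higher in CD45+ cells, with the catalytic subunit Cybb at 668 ± 39 against 10.2 ± 5.72 CPM, and 1, the non-phagocyte isoform Nox4, higher in CD45- cells (0.766 ± 0.486 against 3.0 ± 0.616 CPM, log2 fold change −2.1 ± 0.34, adjusted p = 0.00105). Of 14 tested enzymes of eicosanoid synthesis 9 were called higher in CD45+ cells. The CD45- side held Ptgs1, which encodes cyclooxygenase 1 (52.6 ± 20.9 against 185 ± 8.94 CPM), and the prostaglandin E synthase Ptges (11.8 ± 6.94 against 59.9 ± 4.58 CPM). Lysosomal genes were called in 14 of 23 cases, all towards CD45+, at a median of 1.81. The cysteine protease cathepsin C (Ctsc) was at 2277, 2209, 2370, 2349 and 2220 CPM in the CD45+ libraries and 35.8, 81.8, 24.1, 46.1 and 25.1 CPM in the CD45- libraries (log2 fold change 5.9 ± 0.33, adjusted p = 7.73e-06), which did not overlap. Psap, the precursor of the saposins, had 2293 ± 583 against 683 ± 78.9 CPM, and cathepsin B had 1767 ± 213 against 434 ± 42 CPM, a smaller difference with log2 fold changes of 1.72 and 2.02.

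Complement genes were divided between the gates. Of 18 tested, 12 were called higher in CD45+ cells, led by the anaphylatoxin receptor C3ar1 (605 ± 89.4 against 13.6 ± 6.39 CPM) and the receptor subunit Itgam (465 ± 70.6 against 10.8 ± 4.66 CPM). The 4 called higher in CD45- cells were the protease C1s1 (11.9 ± 7.79 against 74.7 ± 6.16 CPM), the protease Masp1, the inhibitor Serping1 and the regulator Cd46. These counts are 66.67% and 22.22% of the tested complement genes, beside 20.2% and 19.7% of all genes. Serping1, which encodes C1 inhibitor, was at 1.68, 2.58, 0.854, 0.525 and 0.665 CPM in the CD45+ libraries and 22.2, 38.5, 35.2, 35.1 and 28.8 CPM in the CD45- libraries (log2 fold change −4.77 ± 0.36, adjusted p = 3.47e-05). Of 17 genes of cholesterol and lipid transport 6 were called higher in CD45+ and 3 in CD45- cells. These are 35.29% and 17.65% of the list, beside 20.2% and 19.7% of all genes. Pltp, the phospholipid transfer protein, had 304 ± 101 against 14 ± 4.14 CPM. Lrp1, a scavenging receptor for lipoproteins and proteases, was at 429.8, 511, 346, 255 and 249.7 CPM in the CD45+ libraries and 1570, 2021, 1778, 1820 and 1807 CPM in the CD45- libraries (log2 fold change −2.38 ± 0.18, adjusted p = 2.52e-05) and did not overlap.

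Interferon-stimulated genes were higher in CD45+ cells. Of 25 tested genes of the type I response 22 were called (median 2.61) and 0 towards CD45-. Of 20 tested genes of the interferon-gamma response 13 were called (median 1.33), with the guanylate-binding proteins Gbp4 (184 ± 41.9 against 41.5 ± 11.6 CPM) and Gbp7 (176 ± 24.2 against 24.9 ± 7.34 CPM), families with close copies, and B2m, the light chain of MHC class I (7141 ± 445 against 2889 ± 259 CPM, log2 fold change 1.31). B2m was well expressed in both gates. Of checkpoint ligands and receptors 16 of 20 were called higher in CD45+ cells, led by Sirpa (383 ± 101 against 30.5 ± 6.46 CPM), Vsir (152 ± 37.3 against 10.1 ± 1.93 CPM) and Lgals9 (109.7 ± 38.6 against 41.7 ± 9.43 CPM). The 2 called higher in CD45- cells were Pvr (28.2 ± 5.56 against 59.8 ± 8.07 CPM, not called without animal 6 or 7 at −0.97 and −0.99) and Nectin2 (4.64 ± 1.74 against 11.1 ± 1.95 CPM), which encode nectin-type ligands of lymphocyte receptors.

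Promoter windows were compared as a description of what the called genes share. A window is 300 bases, from 250 bases before to 50 bases after an annotated start in RefSeq on GRCm38.p6, and 10736 of 15052 tested symbols matched a gene with windows. PU.1 is the Ets factor that specifies myeloid and B cells and binds GAGGAAGT or near variants. These exact letters, on either strand, stood in 6.34% of windows of genes called higher in CD45+, 2.12% of those called higher in CD45-, 2.74% of those not called and 3.2% of all windows in the reference. The interferon response letters GAAANNGAA stood in 11, 7.45, 6.73 and 8.56%. The RUNX letters TGTGGT stood in 17.5, 12.2, 12.3 and 16.8%. TEAD factors bind GGAATG, whose shares were 12, 15.1, 11.3 and 14.7%. For the AP-1 letters TGANTCA they were 7.35, 8.04, 4.6 and 7.81%, and for the TATA box letters TATAAA 10.2, 9.84, 6.74 and 13.6%. No motif in this set contains another. No test was made, several windows can belong to 1 gene, and a match is not a binding site.

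The PU.1 letters are shown in the windows of the 3 named CD45+ genes with the highest levels that hold them, to let a CD45+ promoter be read beside its values. They lie at chr7:88277835-88278134 (plus strand) for Ctsc, chr3:106790100-106790399 (minus strand) for Cd53 and chr3:90668821-90669120 (plus strand) for S100a8, and are printed 5′ to 3′ on the strand of the gene with the motif, here on the opposite strand in each, in capitals. Cd53, a tetraspanin of leukocytes, stood at 1627, 1421, 1529, 1692 and 1362 CPM in the CD45+ libraries and 26.2, 34.2, 15.8, 29.5 and 18.5 CPM in the CD45- libraries.
Ctsc: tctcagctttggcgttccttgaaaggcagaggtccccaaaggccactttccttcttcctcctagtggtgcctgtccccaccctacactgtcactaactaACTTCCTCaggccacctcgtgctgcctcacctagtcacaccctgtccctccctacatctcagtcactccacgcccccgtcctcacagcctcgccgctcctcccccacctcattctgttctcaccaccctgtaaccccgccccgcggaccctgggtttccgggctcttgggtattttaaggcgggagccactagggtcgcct
Cd53: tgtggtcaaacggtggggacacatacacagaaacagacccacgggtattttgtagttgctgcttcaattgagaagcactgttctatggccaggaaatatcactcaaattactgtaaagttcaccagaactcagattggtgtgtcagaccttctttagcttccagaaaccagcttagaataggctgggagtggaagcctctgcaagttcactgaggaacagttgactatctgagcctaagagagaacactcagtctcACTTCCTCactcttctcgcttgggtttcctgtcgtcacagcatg
S100a8: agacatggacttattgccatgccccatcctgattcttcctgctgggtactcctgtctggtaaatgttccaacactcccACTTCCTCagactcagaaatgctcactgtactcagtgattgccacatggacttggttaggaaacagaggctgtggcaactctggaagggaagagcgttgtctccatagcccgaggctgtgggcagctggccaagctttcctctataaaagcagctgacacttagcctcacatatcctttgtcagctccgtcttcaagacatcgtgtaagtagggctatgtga

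The matrix genes as a group were on the CD45- side. Of 26 tested collagen chains 20 were called higher in CD45- cells and 0 in CD45+ cells (median −3.1). The basement membrane chain Col4a1 had 37 ± 24.6 against 294 ± 66.7 CPM and Col8a1, of vessel and growth matrix, 45.5 ± 26.3 against 206 ± 17.9 CPM. Of 37 matrix glycoproteins and proteoglycans 32 were called higher in CD45- cells. Fn1, which encodes fibronectin, was at 1025, 1525, 865, 774 and 670.5 CPM in the CD45+ libraries and 4447, 5839, 5009, 5719 and 5655 CPM in the CD45- libraries (log2 fold change −2.51 ± 0.19, adjusted p = 2.59e-05), and the phosphoprotein osteopontin (Spp1) at 3184, 2803, 1926, 2162 and 1807 CPM in the CD45+ libraries and 8050, 6703, 6543, 6725 and 7507 CPM in the CD45- libraries (log2 fold change −1.61 ± 0.14, adjusted p = 5.72e-05). Both held high levels in the CD45+ libraries as well. The 4 called higher in CD45+ cells were Srgn, the proteoglycan of leukocyte granules (1676 ± 624 against 40.4 ± 16.5 CPM), Tgfbi, Thbs1 (328 ± 177 against 138 ± 36.5 CPM, not called without animal 1 or 4 at 0.95 and 0.99) and Spon1 (169.8 ± 31.6 against 10.3 ± 3.59 CPM). Tgfbi, an adhesion protein induced by TGF-beta, was at 491, 329.9, 438, 359 and 500.0 CPM in the CD45+ libraries and 6.36, 7.55, 4.89, 8.79 and 5.91 CPM in the CD45- libraries (log2 fold change 5.98 ± 0.24, adjusted p = 2.3e-06).

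Basement membrane genes were called higher in CD45- cells in 13 of 16 cases and higher in CD45+ cells in 2 (median −2.62), with the laminin chains Lamb1 (60.7 ± 41.3 against 357 ± 30.03 CPM) and Lamc1 (43.2 ± 17.8 against 216 ± 14.5 CPM) at the top. Enzymes that modify and crosslink collagen were called in 12 of 18 cases, among them the propeptidase enhancer Pcolce (38.6 ± 25.9 against 252 ± 55.8 CPM), the lysyl hydroxylase Plod2 (50.5 ± 25.5 against 184 ± 29.5 CPM) and the collagen chaperone Serpinh1 (27.4 ± 18.4 against 176 ± 53.8 CPM), and Crtap was called in the other direction (19.9 ± 5.63 against 3.98 ± 1.05 CPM). Of 29 matrix proteases and inhibitors 19 were called higher in CD45- cells, with the inhibitor Timp2 (267 ± 81.6 against 789.7 ± 64.2 CPM) and the membrane protease Mmp14 (50.3 ± 15.6 against 131 ± 27.1 CPM). The 5 called higher in CD45+ cells included urokinase (Plau, 127 ± 31.3 against 11.6 ± 2.19 CPM), Adam8 (53.2 ± 15.4 against 14.2 ± 2.77 CPM), the macrophage elastase Mmp12 (40.3 ± 11.8 against 2.19 ± 1.47 CPM) and Mmp13 (36 ± 5.91 against 0.902 ± 0.318 CPM). Most members of these lists lay on the side of the collagens.

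**Figure D4:**
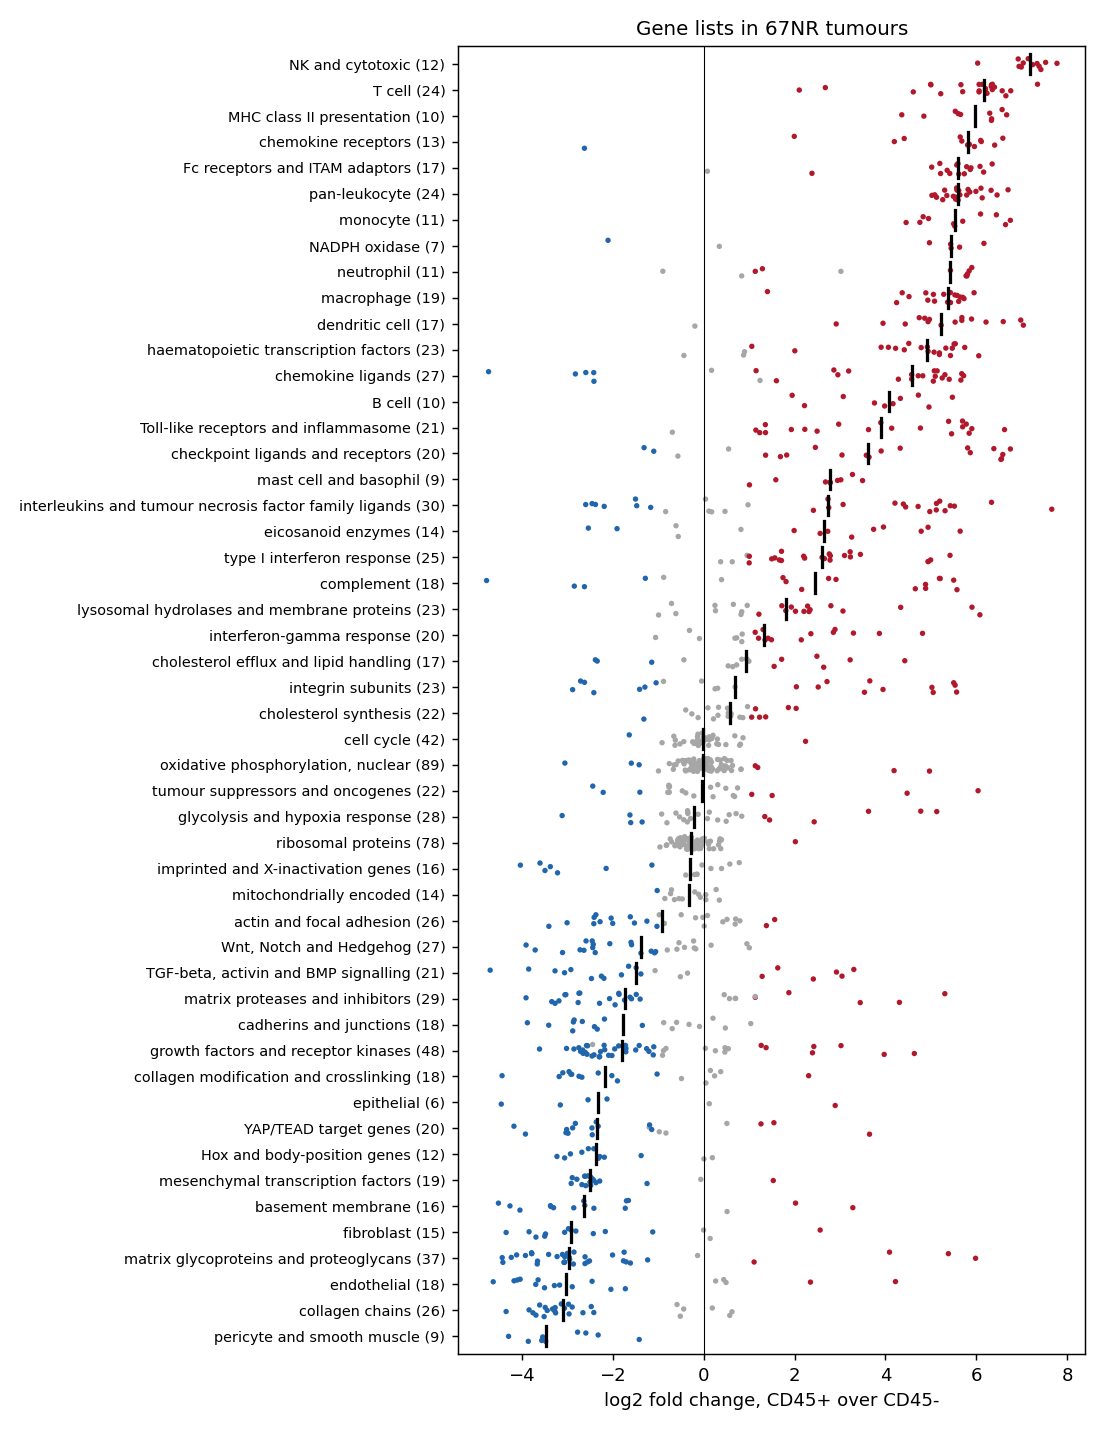
Log2 fold changes of CD45+ over CD45- cells (x axis) of the tested members of each gene list with at least 6 tested members (y axis, number tested in brackets), in red when called higher in CD45+, in blue when called higher in CD45- and in grey when not called, with a black bar at the median. NK, T cell and MHC class II lists sit farthest to the right at medians of 7.19, 6.17 and 5.97, and pericyte and collagen lists farthest to the left at −3.47 and −3.1.

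Genes of cell contacts lay on the side of the matrix genes. Of 18 tested cadherins and junction proteins 10 were called higher in CD45- cells and 0 in CD45+ cells, with the gap junction protein Gja1 (103 ± 48.4 against 492 ± 9.06 CPM), the tight junction scaffold Tjp1 (log2 fold change −2.86) and N-cadherin (Cdh2, 23.3 ± 14.3 against 126 ± 6.08 CPM). Integrins were divided between the gates. Of 23 tested, 11 were called higher in CD45+ cells, such as Itgb2 (416 ± 79.8 against 12.9 ± 3.41 CPM), and 7 higher in CD45- cells, such as the laminin receptor subunits Itga6 (66.6 ± 10.4 against 137 ± 19.4 CPM) and Itga3 (14.6 ± 8.89 against 95.9 ± 17.2 CPM), of which Itga6 fell just short of a call without animal 4 or 6 at −0.99 and −0.95. Of 26 actin and focal adhesion genes 12 were called higher in CD45- cells, with vimentin (Vim, 1382 ± 345 against 3222 ± 453 CPM) and caldesmon (Cald1, 128 ± 77.3 against 523 ± 60.3 CPM). Actb, which encodes beta-actin and is often used as a reference gene, was one of the 2 in the other direction, at 3761, 3621, 3969, 4208 and 5470 CPM in the CD45+ libraries and 1432, 1377, 1647, 1346 and 1256 CPM in the CD45- libraries (log2 fold change 1.56 ± 0.15, adjusted p = 7.18e-05). Its gates did not overlap.

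YAP and TEAD regulate genes in response to tension and cell density. Of 20 tested target genes 13 were called higher in CD45- cells (median −2.34), with the matricellular protein Ccn1 at 196, 228, 154, 73.5 and 30.6 CPM in the CD45+ libraries and 939, 636, 1080, 1217 and 618 CPM in the CD45- libraries (log2 fold change −2.98 ± 0.46, adjusted p = 0.000973), and 3 higher in CD45+ cells, Gadd45b (62.9 ± 14.7 against 26 ± 4.97 CPM), Nuak2 (23.1 ± 4.02 against 1.84 ± 0.513 CPM) and Nt5e (11.6 ± 5.73 against 3.65 ± 0.722 CPM). The gates of Ccn1 did not overlap.

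The TEAD letters GGAATG are shown in capitals in the windows of the 3 named CD45- genes with the highest levels that hold them, at chr3:145649936-145650235 (minus strand) for Ccn1, chr6:34598254-34598553 (plus strand) for Cald1 and chr1:40439379-40439678 (plus strand) for Il1rl1, as a counterpart to the CD45+ promoters. In Ccn1 the letters stand on the opposite strand.
Ccn1: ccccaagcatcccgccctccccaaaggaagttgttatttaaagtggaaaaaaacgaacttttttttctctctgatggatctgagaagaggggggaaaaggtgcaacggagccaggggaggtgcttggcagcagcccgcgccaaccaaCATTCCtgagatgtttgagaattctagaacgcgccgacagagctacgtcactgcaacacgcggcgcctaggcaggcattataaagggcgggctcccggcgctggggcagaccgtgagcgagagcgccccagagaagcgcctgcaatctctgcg
Cald1: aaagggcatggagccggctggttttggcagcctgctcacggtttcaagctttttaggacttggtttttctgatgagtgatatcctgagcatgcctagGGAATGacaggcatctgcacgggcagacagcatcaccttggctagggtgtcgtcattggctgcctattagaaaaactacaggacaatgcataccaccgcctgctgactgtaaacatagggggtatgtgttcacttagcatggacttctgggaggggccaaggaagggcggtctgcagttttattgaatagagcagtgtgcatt
Il1rl1: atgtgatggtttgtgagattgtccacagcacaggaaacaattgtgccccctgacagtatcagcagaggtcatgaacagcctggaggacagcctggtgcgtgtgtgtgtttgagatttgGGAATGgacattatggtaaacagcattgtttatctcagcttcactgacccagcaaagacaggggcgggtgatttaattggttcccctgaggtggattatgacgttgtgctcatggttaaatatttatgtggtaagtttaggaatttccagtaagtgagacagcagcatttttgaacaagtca

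Growth factor, patterning and Wnt genes were weighted towards CD45- cells. Of 48 growth factors and receptor kinases 32 were called higher in CD45- cells and 7 in CD45+ cells, among these Gas6 (82.9 ± 18.9 against 3.43 ± 1.7 CPM) and Igf1 (56.6 ± 9.41 against 7.11 ± 2.21 CPM). The collagen-binding kinase Ddr2 had 80.4 ± 41.3 against 381 ± 38 CPM. Of 27 tested Wnt, Notch and Hedgehog genes 17 were called higher in CD45- cells and 0 in CD45+ cells, with Notch2 (157 ± 23.6 against 329 ± 19.3 CPM) and the co-receptor Lrp5 (27.9 ± 6.81 against 71.5 ± 8.11 CPM). Of 12 tested Hox and body-position genes, which keep a record of a cell's place in the embryo, 10 were called higher in CD45- cells, with Hoxa5 (4.7 ± 2.92 against 20.6 ± 3.67 CPM) and Tbx15 (3.47 ± 1.9 against 18.2 ± 1.39 CPM). TGF-beta and BMP genes were divided, 12 of 21 being called higher in CD45- and 6 in CD45+ cells. Tgfb1, the main ligand of leukocytes, was at 136, 241, 214, 229 and 406 CPM in the CD45+ libraries and 14.4, 28.9, 26.7, 25.7 and 23.6 CPM in the CD45- libraries (log2 fold change 3.31 ± 0.18, adjusted p = 5.49e-06).

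Cytokines and their receptors were read as pairs. Of 42 ligand and receptor pairs 40 had both members tested and 30 had both called. In 13 of these the members lay in different gates, in 14 both were higher in CD45+ cells and in 3 both in CD45- cells. Pairs share members, so that they are not independent. The 8 pairs with the ligand higher in CD45- and the receptor in CD45+ cells were Csf1 and Il34 with Csf1r, Cxcl12 with Cxcr4, Cxcl1 with Cxcr2, Cx3cl1 with Cx3cr1, Kitl with Kit, Lif with Lifr and Ccl11 with Ccr3. Ccl11 was low in both gates, 0.175 ± 0.153 against 4.7 ± 2.06 CPM, and its log2 fold change was −4.73, or −5.47 without animal 4. The 5 pairs in the reverse arrangement were Osm with Osmr, Il1b with Il1r1, Pdgfb with Pdgfrb, Hgf with Met and Igf1 with Igf1r.

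Csf1, on which macrophages depend, was at 80.6, 90.1, 63.9, 43 and 31.5 CPM in the CD45+ libraries and 171, 182, 206, 194 and 197 CPM in the CD45- libraries (log2 fold change −1.72 ± 0.26, adjusted p = 0.000873). Its receptor Csf1r was at 549.5, 630.2, 576, 581 and 904 CPM in the CD45+ libraries and 9.34, 35.1, 12.9, 15 and 7.41 CPM in the CD45- libraries (log2 fold change 5.53 ± 0.42, adjusted p = 3.22e-05). Neither gene overlapped between the gates, and they lay on opposite sides. Kitl, the growth factor of mast cells, was at 264, 287, 191, 90.7 and 44.6 CPM in the CD45+ libraries and 741, 642, 673, 710.5 and 739 CPM in the CD45- libraries (log2 fold change −2.27 ± 0.44, adjusted p = 0.003). Kit, its receptor, was at 29.7, 45.9, 29.7, 28.7 and 29 CPM in the CD45+ libraries and 7.75, 8.5, 7.46, 14.1 and 19.4 CPM in the CD45- libraries (log2 fold change 1.59 ± 0.28, adjusted p = 0.00194). The CD45- level of Kit, like that of the mast cell list, was highest in animals 6 and 7. In the CD45+ libraries Csf1 and Kitl, as well as Cxcl12, Osmr, Il1r1, Il33 and Il1rl1, were highest in animals 1 and 4, whose CD45+ libraries also held the highest summed level of mesenchymal transcription factors (1222 and 1188 CPM, and 599 to 929 CPM in the other animals). What part they have in these levels was not tested.

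The chemokine Cxcl12 was at 39.6, 60.6, 31, 14.4 and 10.3 CPM in the CD45+ libraries and 126, 158, 175, 176 and 153 CPM in the CD45- libraries (log2 fold change −2.59 ± 0.42, adjusted p = 0.00123), and its receptor Cxcr4 had 169.8 ± 38.9 against 9.86 ± 4.66 CPM. Cxcl1, a ligand of Cxcr2, was at 175, 148, 242, 79.6 and 37.5 CPM in the CD45+ libraries and 602, 357, 1054, 682 and 551 CPM in the CD45- libraries (log2 fold change −2.42 ± 0.39, adjusted p = 0.00123). Both ligands were called higher in CD45- cells, in contrast to 20 of 27 chemokine ligands that were called higher in CD45+ cells. Ccl6 (939 ± 261 against 30.2 ± 17.7 CPM) and Ccl8 (773 ± 336 against 36.1 ± 34.4 CPM) held the highest levels among these. The other ligands on the CD45- side included Cx3cl1 (8.32 ± 6.09 against 50.4 ± 10.1 CPM) and Cxcl5 (10.1 ± 7.1 against 44.1 ± 9.73 CPM). Of 13 tested chemokine receptors 12 were called higher in CD45+ cells, and Ackr3, a scavenger of Cxcl12, higher in CD45- cells (9.92 ± 5.85 against 53.2 ± 9.22 CPM, log2 fold change −2.62 ± 0.43, adjusted p = 0.0013). Csf3, the neutrophil growth factor, was too low to be tested, whereas its receptor Csf3r had 179 ± 59.5 against 3.28 ± 1.27 CPM.

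In the reverse direction Osm, a cytokine of the interleukin-6 family, was at 131, 82.8, 95.5, 98 and 54.3 CPM in the CD45+ libraries and 1.59, 2.19, 2.57, 5.34 and 1.95 CPM in the CD45- libraries (log2 fold change 5.12 ± 0.31, adjusted p = 1.09e-05). Its receptor Osmr was at 14.4, 22.4, 7.29, 5.45 and 4.1 CPM in the CD45+ libraries and 91, 75.2, 49.8, 91.1 and 76.9 CPM in the CD45- libraries (log2 fold change −3.05 ± 0.39, adjusted p = 0.000395). The receptor of interleukin-1, Il1r1, was at 11.1, 13.8, 7.91, 4.79 and 3.71 CPM in the CD45+ libraries and 48.1, 43.5, 33.6, 44.7 and 40.7 CPM in the CD45- libraries (log2 fold change −2.47 ± 0.29, adjusted p = 0.000275), opposite to Il1b. Il33, an alarmin of stromal and epithelial cells, was at 25.4, 25.4, 16.8, 7.88 and 6.38 CPM in the CD45+ libraries and 91.3, 80.9, 74.1, 84.6 and 109.7 CPM in the CD45- libraries (log2 fold change −2.59 ± 0.39, adjusted p = 0.000889), and its receptor Il1rl1, which mast cells and regulatory T cells carry, lay in the same gate at 258, 176, 174, 93.7 and 64.3 CPM in the CD45+ libraries and 565, 377, 398, 308 and 461 CPM in the CD45- libraries (log2 fold change −1.58 ± 0.27, adjusted p = 0.00163). Of 30 tested interleukins and tumour necrosis factor family ligands 17 were called higher in CD45+ and 7 in CD45- cells, the latter including Il33, Clcf1 (19.2 ± 2.34 against 53.6 ± 9.73 CPM), Lif (10.1 ± 3.77 against 27.7 ± 6.42 CPM) and Il6 (13.2 ± 6.79 against 26.6 ± 7.68 CPM). Il6 was not called without animal 6, at −1.05, or animal 7, at −0.84. Tnf had 39.5 ± 10.1 against 1.24 ± 0.329 CPM. Cd44, a receptor of osteopontin and hyaluronan, was not called and had 605 ± 101 against 569.9 ± 70.01 CPM, at a log2 fold change of 0.08 ± 0.16.

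Arg1, which encodes the arginine-degrading enzyme arginase 1 of myeloid cells, was chosen after its values were seen, because the study examined it. It stood at 63.2, 56.9, 7.68, 136 and 7.32 CPM in the CD45+ libraries and 1.84, 0.99, 0.642, 18.6 and 0.287 CPM in the CD45- libraries (log2 fold change 4.32 ± 0.47, adjusted p = 0.000197). It was called higher in CD45+ cells and higher there within each animal, but the gates overlapped, because the CD45- value of animal 6 was above the CD45+ values of animals 5 and 7.

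Few genes of the cell cycle, ribosomal protein and oxidative phosphorylation lists were called. Of 42 cell cycle genes 1 was called in each direction (median −0.01), both D-type cyclins. Ccnd1 was at 203, 233, 217, 105 and 139 CPM in the CD45+ libraries and 517, 539, 665, 426 and 551 CPM in the CD45- libraries (log2 fold change −1.64 ± 0.15, adjusted p = 6.12e-05), and Ccnd2 at 78.7, 119.8, 148, 171 and 176 CPM in the CD45+ libraries and 24.7, 29.6, 29.98, 29.5 and 27.6 CPM in the CD45- libraries (log2 fold change 2.24 ± 0.16, adjusted p = 1.67e-05). Neither cyclin overlapped between the gates, and they lay on opposite sides. Of 78 ribosomal protein genes 1, Rps4l, was called (2.54 ± 1.71 against 0.587 ± 0.262 CPM), of 89 nuclear genes of oxidative phosphorylation 4 were called higher in CD45+ and 3 in CD45- cells, and of 14 mitochondrially encoded genes 1, mt-Cytb, was called higher in CD45- cells, against 40% of all genes. The call of mt-Cytb was lost without animal 6 or 7 (−0.94 and −0.82), without the animal block (−0.92), with DESeq2 (−0.98), with RLE factors (−0.98) and in the test against a log2 fold change of 1. The 3 on the CD45- side, Ndufa4l2 (0.47 ± 0.283 against 3.75 ± 0.982 CPM), Cox7b2 (1.24 ± 0.78 against 3.36 ± 1.08 CPM) and Cox4i2 (0.514 ± 0.354 against 1.49 ± 1.14 CPM), are tissue- or oxygen-dependent forms, and Cox4i2 was called only with animals 1, 4, 5 and 6 all present. Cholesterol synthesis was called higher in CD45+ cells in 6 of 22 cases, with Idi1 (91.1 ± 34.8 against 23.2 ± 11.4 CPM), and higher in CD45- cells in 1. Glycolysis and hypoxia genes were called higher in CD45+ in 6 and in CD45- in 4 of 28 cases, the latter with Vegfa (51.4 ± 30.1 against 135 ± 17.8 CPM) and Car9 (7.33 ± 1.99 against 18.9 ± 5.17 CPM). These are 27.3% and 4.55% of the genes of cholesterol synthesis and 21.4% and 14.3% of those of glycolysis and hypoxia, beside 20.2% and 19.7% of all genes. A call needs a difference of more than 1 on the log2 scale, so that smaller differences in these groups are not counted.

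Per transcript length, in TPM, the scaled share of transcripts, both gates were led by mitochondrial genes. Apart from these and their nuclear copies, whose counts cannot be told apart with certainty, the elongation factor Eef1a1 was highest in both, with 9263 ± 1149 against 11660 ± 604 TPM. B2m was among the 10 highest genes of CD45+ cells only, with 8273 ± 929.7 against 3432 ± 289 TPM. Xist, the RNA that silences one X chromosome in female cells, was at 2068, 1711, 2119, 2010 and 1374 CPM in the CD45+ libraries and 2321, 1904, 1615, 1808 and 1808 CPM in the CD45- libraries (log2 fold change −0.03 ± 0.13, adjusted p = 0.835). Xist was well expressed in every library and did not pass the test between the gates. Of 16 tested imprinted and X-inactivation genes 7 were called higher in CD45- and 0 in CD45+ cells, with the imprinted transcript Kcnq1ot1 (25.7 ± 10.4 against 54.5 ± 18.3 CPM, not called without animal 7 at −0.93) and Mest (1.84 ± 1.13 against 20.02 ± 10.7 CPM). Of 22 tumour suppressors and oncogenes 4 were called higher in CD45+ and 3 in CD45- cells, the latter being Nf1 (55.9 ± 12.2 against 147 ± 31.3 CPM), Igf2bp2 (14.7 ± 9.02 against 68.5 ± 7.11 CPM) and Cdkn2a (3.37 ± 1.46 against 14.8 ± 2.31 CPM). These are 18.18% and 13.64% of the list, beside 20.2% and 19.7% of all genes. Traces of other tissues were few. Of 4 tested adipocyte, muscle and nerve genes 2 were called higher in CD45- cells and Pparg higher in CD45+ cells, and of 4 tested erythroid genes Hba-a1, which has a near-identical copy, was called higher in CD45- cells but lost that call without animal 1 or 5, at −0.71 and −1.02.

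Whether the gate difference was particular to 67NR tumours was asked by setting it beside that of 66cl4 tumours in 1 fit over 20 libraries. The difference between the gate effects (67NR minus 66cl4) passed an adjusted p-value of 0.05 for 7150 of 16453 genes (43.5%), being positive for 3501 and negative for 3649. Levels here are on a scaling over all 20 libraries. Of 24 pan-leukocyte genes 19 had a smaller and 2 a larger gate effect in 67NR tumours, at medians of 5.61 in 67NR and 7.56 in 66cl4 tumours. Ptprc had 1205 and 14.5 CPM in CD45+ and CD45- cells of 67NR tumours and 1088 and 4.16 CPM in those of 66cl4 tumours, a difference of −1.94 ± 0.7 on the log2 scale (adjusted p = 0.0423). The mean level of Ptprc in the CD45- gate was thus higher in 67NR tumours, and the part of this in the smaller gate effects of other leukocyte genes was not tested.

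Counts of other lists are for 1 direction and are read against the share of all genes that passed in that direction, 21.3% positive and 22.2% negative. Of 17 Fc receptor and adaptor genes 15 had a smaller effect in 67NR tumours, of 18 endothelial genes 12 had a smaller, that is more negative, effect, and of 12 NK genes 0 had a smaller and 1 a larger effect. More positive effects in 67NR tumours were found for 15 of 21 YAP/TEAD targets, 17 of 22 genes of cholesterol synthesis and 18 of 42 cell cycle genes, the last list having 0 in the other direction. For YAP/TEAD targets the median effect was −2.29 in 67NR and −2.82 in 66cl4 tumours, for mesenchymal transcription factors −2.48 and −3.87, and for cholesterol synthesis 0.59 and −0.5. Endothelial genes stood at −3.02 in 67NR and −0.46 in 66cl4 tumours.

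For 348 of the 16453 genes the difference passed its test and the gate effects exceeded 1 on the log2 scale in opposite directions. The effect within each tumour did not have to pass a test of its own. Of the 348 genes, 131 were higher in CD45+ cells and 217 higher in CD45- cells of 67NR tumours. The proteoglycan versican (Vcan) had, in CD45+ and CD45- cells, 197 and 599.6 CPM in 67NR and 855 and 6.2 CPM in 66cl4 tumours (difference −8.8 ± 0.5, adjusted p = 2.26e-07). In 67NR tumours its libraries were at 309.8, 205, 172, 250.5 and 66 CPM in the CD45+ libraries and 753, 686, 465, 604 and 564 CPM in the CD45- libraries, so that versican was a gene of the CD45- gate there. Thrombomodulin (Thbd) had 29.2 and 90.1 CPM in 67NR and 43.4 and 1.23 CPM in 66cl4 tumours (difference −6.76 ± 0.49, adjusted p = 1.41e-06). Xist and Ass1 were not among the 348 genes, since their gate effects in 67NR tumours were −0.02 and −0.49. Xist had 1832 and 1845 CPM in 67NR and 2094 and 29.6 CPM in 66cl4 tumours (difference −6.17 ± 0.22, adjusted p = 6.78e-09), the low value being that of the 66cl4 CD45- cells, while all groups of 67NR tumours and the CD45+ cells of 66cl4 tumours were high. Ass1, which makes argininosuccinate from citrulline, had 37.8 and 54.3 CPM in 67NR and 36.6 and 0.205 CPM in 66cl4 tumours (difference −7.79 ± 0.41, adjusted p = 1.12e-07).

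Among the differences in the other direction, the transcriptional coactivator Eya1 had 2.55 and 0.304 CPM in 67NR and 5.82 and 106 CPM in 66cl4 tumours (difference 7.26 ± 0.63, adjusted p = 4.65e-06). The mitochondrial enzyme subunit Dbt had 15.8 and 1.12 CPM in 67NR and 17.6 and 53.5 CPM in 66cl4 tumours (difference 5.38 ± 0.19, adjusted p = 6.78e-09). The glycoprotein Cd24a had 109.8 and 5.22 CPM in 67NR and 228 and 246 CPM in 66cl4 tumours (difference 4.59 ± 0.31, adjusted p = 7.42e-07). For these 3 genes the CD45- cells of 67NR tumours held the lowest mean of the 4 groups. Tigit, an inhibitory receptor of T and NK cells, had 51.1 and 5.97 CPM in 67NR and 16.9 and 55.2 CPM in 66cl4 tumours (difference 4.78 ± 0.32, adjusted p = 6.9e-07), with the CD45- gate of 66cl4 tumours as high as the CD45+ gate of 67NR tumours. Leaving out animals 5 and 6 of the 66cl4 group, whose recorded cell type contradicts the title, gave 5533 calls in place of 7150 and left the sign of each difference named here as it was.

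**Figure D5:**
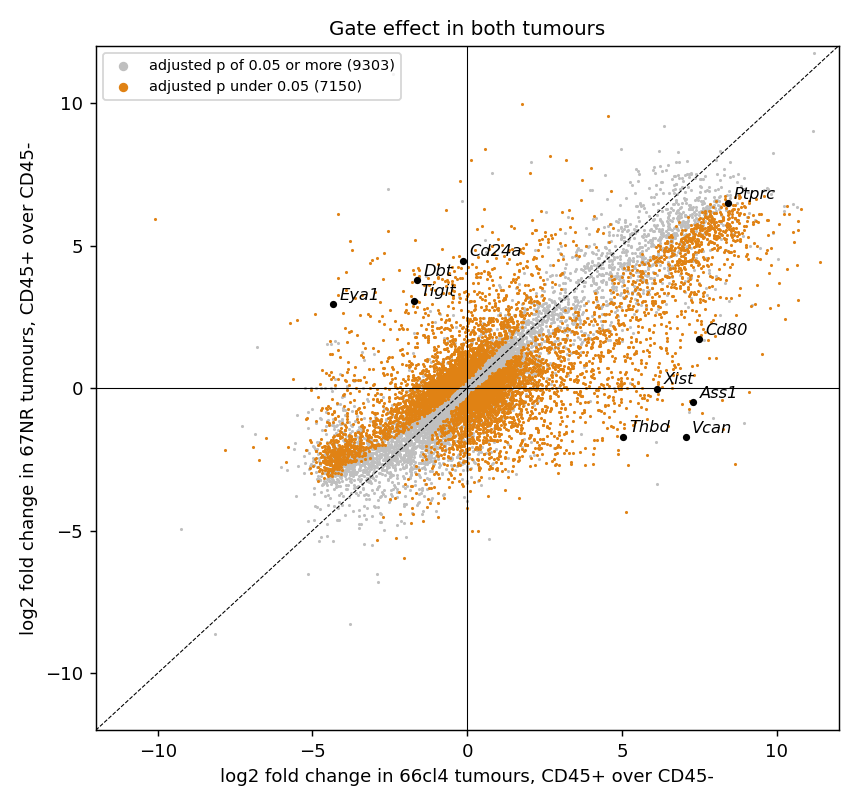
Each point is 1 of 16453 genes, plotted by its log2 fold change of CD45+ over CD45- cells in 66cl4 (x axis) and in 67NR tumours (y axis), in orange when the difference of the effects has an adjusted p-value under 0.05 (7150 genes) and in grey otherwise, with a dashed line where both effects are equal. Ptprc lies below the line at 6.47 in 67NR and 8.42 in 66cl4 tumours, Vcan and Xist lie far below it and Eya1 far above it.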

How the data were processed

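RNA was isolated from CD45+ and CD45- cells of 67NR and 66cl4 tumours that had been sorted by flow cytometry on CD45 and a viability dye, and was sequenced with single reads from SENSE mRNA-Seq V2 libraries. After trimming (fastp), the authors quantified transcripts with Salmon 1.3.0 and collapsed them to genes by tximport. The deposited values are expected counts per gene, not normalised. Their methods name GRCh38, a human reference, whereas the gene identifiers are those of mouse, and the mouse build is not given in the sources used here, so no coordinates are given for the counted genes, and those of promoter windows are positions in RefSeq on GRCm38.p6. Gene symbols, found for 51492 of 52783 identifiers, and transcript lengths came from a mouse reference list. Genes without a length held 2.44% of the counts of the 67NR libraries. Reads that fit several similar genes can be divided among them, so counts of multigene families (Klra, Klrc, Gzm, Fcgr, Gbp, Ccl, Hba, Lyz, ribosomal and mitochondrial copies) are uncertain.

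Samples were grouped by their titles, which name tumour, animal and gate. The title of the CD45- library of 66cl4 animal 5 reads negCD46 and was read as negCD45. Expected counts were rounded, by at most 0.5 per value, and the 10 libraries of 67NR tumours were fitted by edgeR 4.0.16 under R 4.3.3 (quasi-likelihood, robust, animal as a block, TMM factors). Genes needed a count of 10, and 15 in total, by the default filter of edgeR, and p-values were adjusted after Benjamini-Hochberg. The difference from 66cl4 tumours was the interaction over 20 libraries with 10 animals as a block and a call at an adjusted p under 0.05. Both gates of a number come from 1 animal, which pairs them. The deviations of paired libraries from their group means correlated at 0.348, −0.01, 0.0356, 0.0826 and 0.0719. Each animal is 1 tumour. With animal as a block, p-values weigh the mean gate difference within animals against the variation left after the block. That variation is estimated with information shared across genes, so a p-value does not measure how far a single gene varies between animals. In a 67NR library a count of 0 allows up to 3 counts, 0.135 to 0.232 per 1000000 counts, which covers counting error only. The tests were tried first on simulated counts with 200 changed genes and no animal effect. Of these 182 were recovered in the gate comparison and 160 in the interaction, and 7.14% and 6.98% of calls were false. The data differ from that setting, since 40% of genes were called between the gates. TPM used the median transcript length. Python 3.11.15, pandas 2.3.3 and matplotlib 3.10.9 were used for lists and figures.

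The genes named are Ptprc, the 12 largest fold changes in each direction with at least 50 CPM and no overlap, the 3 called members with the highest level of each list and up to 4 called against its majority, both members of 42 ligand and receptor pairs, the 10 highest genes by TPM, and the 10 largest differences from 66cl4 tumours in each direction with at least 50 CPM. Coro1a, Cd37 and Arg1 lie outside this rule and were chosen after their values were seen, and 1 gene that the rule names is not reported here. The comparison, the lists and the pairs were chosen with earlier results of these data known. Lists were described by counts and medians without a test. Alternatives were no replicate block, DESeq2 1.42.0, RLE factors, total counts, dropping the filter or asking for 10 counts in 5 libraries, a test against a log2 fold change of 1, all 20 libraries in 1 fit, leaving out each animal or 66cl4 animals 5 and 6, and, chosen after seeing the data, leaving out animals 1 and 4. Promoter windows of chromosome 18 were not used here.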

Additional observations from a re-analysis of the deposited data

Results flagged for a closer look

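In sets of 5 libraries the highest or lowest value was tested for a gap to the other 4. Of 110 sets 10 were picked out. Chance gives about 1 in 20 for independent, normally distributed values. These sets came from 54 genes whose values are given by library and from library totals. They share libraries and were not drawn at random, so their number cannot be read against that rate. Animal 4 held 4 of the values in CD45- cells, namely 53.2 CPM for C1qb, 56.1 CPM for H2-Aa, 1.28 CPM for Cd3g and 35.1 CPM for Csf1r, each the highest of its gate, and it is also the animal whose CD45- library held the highest pan-leukocyte level. It held the highest CD45+ value of Kit as well, at 45.9 CPM. In animal 6 the CD45+ value of Ms4a1 was 58.4 CPM, and the CD45- values of Osm and Arg1 were 5.34 and 18.6 CPM. In animal 7 the CD45+ value of Csf1r was 904 CPM, and the total of its CD45- library, 16917017 estimated counts, was the lowest of that gate.

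The gate effect differed between the tumours for 7150 genes by the interaction test in edgeR. The largest named differences (67NR minus 66cl4, log2) on the positive side were those of Tpt1-ps3 at 7.87, Eya1 at 7.26, Fam213a at 5.64, Pkia at 5.61, Dbt at 5.38, Fgfbp1 at 4.90, Flrt3 at 4.86, Pon3 at 4.81, Tigit at 4.78 and Cd24a at 4.59. On the negative side they were Vcan at −8.80, Ass1 at −7.80, Fcmr at −6.97, Thbd at −6.76, Stac2 at −6.72, Dock11 at −6.51, Xist at −6.17, Ubqln2 at −6.01, Pid1 at −5.86 and Cd80 at −5.78. Tpt1-ps3, a pseudogene whose reads can belong to its parent gene, stood at 282 CPM in 1 CD45- library of 67NR tumours, animal 1, and at 0 in the other 4, so its value depends on how reads were divided. Fgfbp1 was near 0 in both gates of 67NR tumours (means 0.0977 and 0.0871 CPM) and its difference rests on 66cl4 tumours.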

How the results depend on the processing

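The number of called genes was 6018, and 5776 to 6195 when each animal was left out (2965 to 3197 higher in CD45+ and 2707 to 3120 higher in CD45- cells), 5992 with no replicate block, 7355 with DESeq2, 7583 without a filter, 4650 in a test against a log2 fold change of 1 and 6597 without animals 1 and 4, a setting chosen after seeing the data. The block changed the call of 5 named genes, Mcpt4 (1.78 without the block), Cox4i2 (−1.49), Hba-a1 (−1.56), mt-Cytb (−0.92) and Tpt1-ps3 (1.5), and of 2 named differences between the tumours, Tpt1-ps3 (1.24) and Fcmr (−6.38), and no other call of a named gene. For the interaction the leave-one-out range was 6372 to 7224, and asking for an absolute difference over 1 in addition left 4294. Signs were reversed only for genes that were not called, with leave-one-out ranges of −0.176 to 0.66 for Kdr, −0.0382 to 0.545 for Vegfc and −0.181 to 0.024 for mt-Co1 (all reversed without animal 7), −0.0115 to 0.227 for Cd44 (without animal 1) and −0.15 to 0.0565 for Xist (without animals 1 and 7), and further for Cd44 without animals 1 and 4 (−0.10) and for Xist with DESeq2 (0.0057), RLE factors (0.0023) and without animals 1 and 4 (0.10), and the cause was not tested. Of the named genes 86 values lost and 4 gained a call over all settings, and 4013 kept both sign and side. The difference of Fgfbp1 lost its call in 6 settings, that of Tpt1-ps3 in 9 and that of Fcmr in 1. With total counts as library sizes the median of all genes moved to −0.11.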
